A study of Mus musculus with 45 samples.

Results

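Bisphenol S (BPS) at 10 µM was compared with its vehicle, dimethyl sulfoxide (DMSO), in cultured mouse forelimb buds, over 3, 24 and 48 h in 1 model with time as a block. The comparison took 15 libraries of 10 µM BPS and 15 of DMSO, 30 of the 45 libraries of the study, and tested 18009 of the 34994 genes listed. The 6 groups were 10 µM BPS at 3 h, 24 h and 48 h and DMSO at 3 h, 24 h and 48 h, with 5 libraries each. The other 15 libraries, 50 µM BPS at the same times, were used where the 2 doses were set against each other. All groups shared the CD1 strain, gestation day 13 and one culture medium, and both sexes were kept in the same cultures. The strain labels of the 50 µM libraries at 48 h read CD2 to CD6, and these were analysed as CD1. Forelimbs were pooled before culture, and no label tells whether the 5 libraries of a group stem from separate cultures or litters. P-values therefore cover only the spread among these libraries, part of which may be technical.

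BPS is a replacement for bisphenol A in consumer plastics and thermal paper, and bisphenols are studied as ligands of estrogen receptors and other nuclear receptors. The limb bud at this stage is a cartilage model under an epidermal cover, with muscle, vessels, nerve and blood cells. Its chondrocytes multiply, enlarge and are then replaced by bone in endochondral ossification, a sequence steered by SOX9, Indian hedgehog, BMP, FGF and Wnt signals. Cholesterol synthesis, driven by the transcription factor SREBP2 when sterol in the endoplasmic reticulum is low, supplies membranes and the sterol carried by hedgehog ligands.

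The summed gene counts of a library ran from 15.2 to 23.1 M reads, and the median was 18.2 M on both sides. Levels are given as CPM, reads of a gene scaled to a common library total, and a level of 0 allows up to 3 reads, or 0.13 to 0.197 CPM, counting error only. Forelimb identity was clear in all 30 libraries: the forelimb factor Tbx5 had 190 to 324 CPM, against 21.3 to 31.4 CPM for the hindlimb factor Tbx4 and 2.36 to 7.40 CPM for the hindlimb factor Pitx1. Col2a1, the collagen of cartilage, had 2252 to 11759 CPM. Other cell types were present, with 44.0 to 229 CPM of the epidermal keratin Krt5, 35.6 to 71.1 CPM of the endothelial Pecam1, 12.1 to 28.2 CPM of the macrophage receptor Csf1r and 169 to 781 CPM of the globin Hba-a1. The Y-linked gene Ddx3y was at 0 CPM in 10 µM replicate 2 and DMSO replicate 1 at 3 h, and at 29.0 to 122 CPM in the other libraries. Xist, expressed from the inactive X chromosome of female cells, had 1.52, 1.11 and 1.11 CPM in 3 libraries of 10 µM (3 h replicate 1, 24 h replicate 1 and 48 h replicate 4), and 394 to 1704 CPM in the others. Although the labels give both sexes in each culture, 4 libraries of 10 µM and 1 of DMSO thus held little or none of one of these transcripts.

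At 10 µM, 0 of 18009 genes (0%) passed the edgeR quasi-likelihood test at an adjusted p below 0.05, and the smallest adjusted p was 1.00. At an unadjusted p below 0.05 there were 630 genes (3.50%), 311 higher (1.73%) and 319 lower (1.77%) with 10 µM. Without any difference about 1 in 20 genes would reach that threshold, a larger share than the 3.50% seen. This share depended on the setting: with no filter on low counts it was 2015 of 34087 genes, above 1 in 20. DESeq2 called 0 genes (684 at an unadjusted p below 0.05) and limma-voom 0 (688). The number of calls stayed at 0 without the 5 libraries low in Ddx3y or Xist (685 at an unadjusted p below 0.05) and with Ddx3y as a covariate (459), both chosen after seeing the data.

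The precision of the fit sets the size of a difference common to the 3 times that these libraries can leave unseen. A difference at a single time was measured less tightly. For Col2a1 the SE was 0.0759 at 48 h and 0.0434 for the times combined. The log2 fold change of 10 µM over DMSO had a median of 0.000649 and quartiles of -0.04 and 0.04 over all genes. Among the 15233 genes with a mean of at least 1 CPM, the 95% interval had a median reach of 0.106 to either side on the log2 scale. It lay within 1.1-fold of no difference for 46.3% of them, within 1.2-fold for 77.7%, within 1.5-fold for 97.7% and within 2-fold for 99.7%. A difference of 2-fold or more, common to the times, was thus inside the interval of 42 such genes only. Gm42047, an unnamed gene model, had the largest estimate among them, -1.15 ± 0.745 (SE), with an edgeR p of 0.136.

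**Figure D1:**
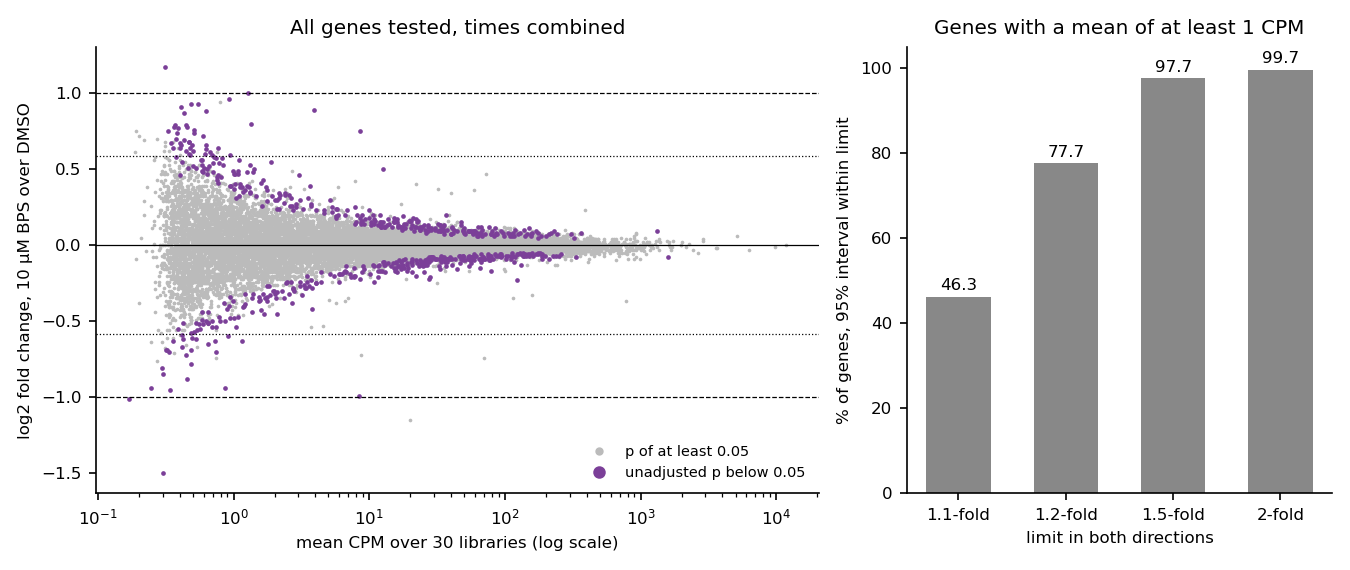
Left, log2 fold change of 10 µM BPS over DMSO, times combined, against the mean level over 30 libraries in CPM (log scale). Each point is 1 of 18009 genes, purple where the unadjusted p was below 0.05, and dotted and dashed lines mark 1.5-fold and 2-fold. Right, the percentage of the 15233 genes of at least 1 CPM whose 95% interval lay within each limit in both directions, 46.3% at 1.1-fold and 99.7% at 2-fold.

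The genes named next had the smallest p of their direction, by rule, and none passed the adjusted threshold (edgeR adjusted p = 1.00 for each). Since they were picked for their p, their sizes are descriptions, and so are the counts of libraries above or below the DMSO median. Those counts were not taken over all genes. Groups without overlap are also descriptions, and 1.49% of the 18009 genes had them at 1 time or more. The genes lower with 10 µM are given first.

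Mettl17 encodes a factor of mitochondrial ribosome assembly (chromosome 14, 51884842 to 51893039, plus strand, mm10 as for all coordinates of genes). At 3 h it had 26.8, 29.0, 28.3, 29.9 and 31.7 CPM with 10 µM, against 27.7, 29.7, 30.6, 35.8 and 32.9 CPM with DMSO. At 24 h it had 34.3, 33, 28.9, 35 and 32.6 CPM with 10 µM, against 39.9, 37.8, 37.8, 37.4 and 39.5 CPM with DMSO. At 48 h it had 31.1, 29.4, 32.2, 29.3 and 34.9 CPM with 10 µM, against 34.2, 34.7, 31.5, 35.7 and 35.1 CPM with DMSO. The 24 h groups did not overlap, those of 3 h and 48 h did, and 13 of the 15 libraries of 10 µM lay below the DMSO median of their time. The log2 difference was -0.16 ± 0.0392 (SE; 95% interval -0.23 to -0.08), a level lower by 10.2% with 10 µM (edgeR p = 3.09e-04, n = 15 a side). Slc39a2, of 2.73 CPM, overlaps it on the same strand, so a small part of its reads is uncertain.

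Osr2 encodes an odd-skipped zinc finger factor of developing joints (chromosome 15, 35296098 to 35303305, plus strand). At 3 h it had 46.1 to 49.4 CPM with 10 µM and 46.2 to 50.7 CPM with DMSO. At 24 h it had 51.5 to 58.3 CPM with 10 µM and 56.9 to 61.7 CPM with DMSO. At 48 h it had 57.3, 51.7, 54.0, 51.4 and 55.6 CPM with 10 µM, against 74.1, 61.8, 61.1, 63.9 and 58.4 CPM with DMSO. The groups overlapped at 3 h and 24 h and did not at 48 h, and each of the 15 libraries of 10 µM lay below the DMSO median of its time. The log2 differences at 3, 24 and 48 h were -0.04, -0.13 and -0.25, and the combined one -0.14 ± 0.0342 (SE; edgeR p = 2.80e-04, n = 15 a side).

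Adcy4 encodes an adenylyl cyclase, an enzyme that makes cyclic AMP (chromosome 14, 55769057 to 55784095, minus strand). Its p was the smallest of the genes named here, with a log2 difference of -0.16 ± 0.0394 (SE; edgeR p = 1.87e-04, n = 15 a side). At 48 h it had 38.7, 37.4, 40.2, 37.5 and 40.6 CPM with 10 µM, against 56.1, 44.8, 42.7, 46.1 and 48.0 CPM with DMSO, without overlap. At 3 h and 24 h the ranges overlapped, with 36.7 to 40.1 CPM for 10 µM and 39.6 to 45.1 CPM for DMSO at 3 h. At 24 h they were 39.4 to 49.3 CPM with 10 µM and 46.6 to 51.6 CPM with DMSO.

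Adam33, a membrane-bound metalloprotease (chromosome 2, 131050591 to 131063814, minus strand), averaged 10.1 ± 0.858 CPM with 10 µM and 11.5 ± 1.90 CPM with DMSO at 3 h (SD, n = 5). At 24 h the means were 26.7 ± 1.74 CPM with 10 µM and 31.3 ± 3.05 CPM with DMSO, and at 48 h 39.1 ± 3.91 CPM with 10 µM and 46.4 ± 6.61 CPM with DMSO. The level was higher at each later time on both sides, and the groups overlapped at each time. Its log2 difference of -0.22 ± 0.0567 (SE) corresponded to 14.4% less with 10 µM, with all 15 libraries below the DMSO median of their time.

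Among the other low genes, Slc9a5, a sodium and proton exchanger, had a log2 difference of -0.12 ± 0.0317 (SE), and its 48 h groups of 38.3 to 42.0 CPM with 10 µM and 42.1 to 44.3 CPM with DMSO did not overlap. Lrrc45, a centrosome linker protein, had -0.17 ± 0.0443. Acsl6, which activates long-chain fatty acids, had the widest of these differences, -0.63 ± 0.169, at a mean of 1.15 CPM. For Slc9a5, Lrrc45 and Acsl6 all 15 libraries of 10 µM lay below the DMSO median of their time. Igsf6, with -0.33 ± 0.0906, was the only one of 18009 genes whose groups did not overlap at 2 of the 3 times, but Mettl9 of 102 CPM overlaps it on the other strand, and the library kit is not stated to keep strand.

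The genes that stood higher were led by Tns4, a tensin of focal adhesions (chromosome 11, 99065678 to 99089306, minus strand). Tns4 averaged 5.78 ± 1.13 CPM with 10 µM and 5.16 ± 0.349 CPM with DMSO at 3 h (SD, n = 5), 2.48 ± 0.596 CPM with 10 µM and 1.73 ± 0.411 CPM with DMSO at 24 h, and 1.88 ± 0.538 CPM with 10 µM and 1.03 ± 0.333 CPM with DMSO at 48 h. Its groups overlapped at each time, and 12 of 15 libraries of 10 µM lay above the DMSO median. The log2 difference was 0.46 ± 0.126 (SE), or 37.3% more with 10 µM (edgeR p = 8.18e-04, n = 15 a side). Slc5a3, the importer of the osmolyte myo-inositol (chromosome 16, 92058322 to 92087473, plus strand), had 0.20 ± 0.0575, with 14 of 15 libraries above the DMSO median. It overlaps Mrps6, of 11.2 CPM on the same strand, so its reads are partly uncertain.

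Of the other high genes, Spcs3, a subunit of the signal peptidase complex, averaged 89.9 ± 5.10 CPM with 10 µM and 81.4 ± 4.69 CPM with DMSO at 24 h (SD, n = 5), and its combined log2 difference was 0.11 ± 0.0310. Tpp1, a lysosomal peptidase, had 0.12 ± 0.0371, Elovl4, an elongase of very long chain fatty acids, 0.18 ± 0.0533, and the kinase gene Pak3 0.17 ± 0.0525. These were differences of 7.73% to 13.0%. Fbxo36, with 0.31 ± 0.0889, overlaps Trip12 of 305 CPM on the other strand and is uncertain.

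**Figure D2:**
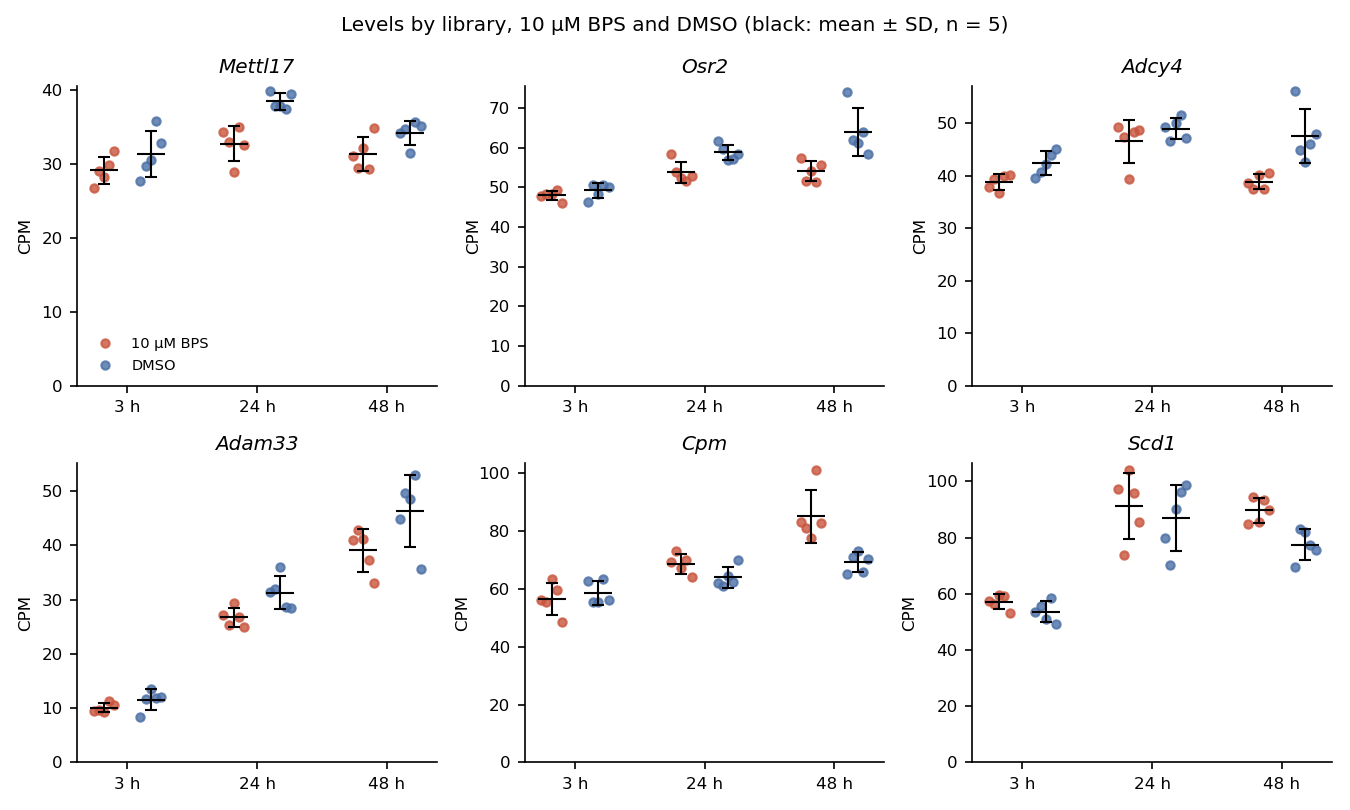
CPM of 6 genes in each library at 3, 24 and 48 h, 10 µM BPS in red and DMSO in blue, with the mean and SD of 5 libraries in black. Mettl17 at 24 h, Osr2 and Adcy4 at 48 h lie without overlap below DMSO, and Cpm and Scd1 at 48 h without overlap above it, while Adam33 overlaps at each time.

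Whether the response to 10 µM changed with time was tested as a dose by time interaction. In edgeR 0 of 18009 genes (0%) passed, with 340 (1.89%) at an unadjusted p below 0.05, and DESeq2 and limma-voom also called 0 (396 and 376 at an unadjusted p below 0.05). Taken time by time in the same fit, 0 genes passed at 3, 24 or 48 h, with 353 (1.96%), 449 (2.49%) and 662 (3.68%) at an unadjusted p below 0.05. Each of these shares also lay below 1 in 20. Groups of 5 against 5 did not overlap for 78 genes at 3 h (0.433%), 94 at 24 h (0.522%) and 98 at 48 h (0.544%), in all 269 genes at 1 time or more (1.49%).

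The differences of separate times were set side by side gene by gene. Across 15230 genes the Pearson correlation of the log2 differences was 0.02 between 3 and 24 h, -0.02 between 3 and 48 h and 0.08 between 24 and 48 h, where the times share no library and genes are not independent replicates. The Spearman correlation was -0.03, -0.03 and 0.18 for the same pairs of times. The same sign at all 3 times was seen for 2027 genes above 0 (13.3%) and 2227 below 0 (14.6%). The smallest interaction p was that of Slc11a1, a metal transporter of phagosomes, with -0.66 at 3 h, 0.26 at 24 h and -0.19 at 48 h (edgeR adjusted p = 1.00).

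Cpm, encoding the membrane-bound carboxypeptidase M (chromosome 10, 117629500 to 117687352), was taken from the panel and is given by time. At 48 h it had 83.1, 80.9, 77.7, 101 and 82.8 CPM with 10 µM, against 65.1, 71.0, 73.1, 65.9 and 70.4 CPM with DMSO. The ranges overlapped at 3 h (48.6 to 63.2 CPM with 10 µM, 55.3 to 63.4 CPM with DMSO) and at 24 h (63.9 to 73.0 CPM with 10 µM, 60.9 to 69.9 CPM with DMSO). The log2 differences were -0.05, 0.10 and 0.30 at 3, 24 and 48 h, and the interaction had an edgeR adjusted p of 1.00. The combined difference of 0.12 ± 0.0437 (SE) was 0.02 without the 48 h libraries.

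The skeletal programme showed no difference past the test. Of 24 genes of cartilage matrix and early chondrocytes 0 passed, against 0% of all genes, and their median log2 difference was -0.01. The interval lay within 1.2-fold for 21 of them, against 65.7% of all genes and 77.7% of genes of at least 1 CPM. Col2a1 averaged 2428 ± 133 CPM with 10 µM and 2595 ± 162 CPM with DMSO at 3 h, and 6120 ± 456 CPM with 10 µM and 6329 ± 196 CPM with DMSO at 24 h (SD, n = 5). At 48 h it had 9645 to 10868 CPM with 10 µM and 7377 to 11759 CPM with DMSO, and the groups overlapped at each time. Its combined log2 difference was -0.03 ± 0.0434 (SE; 95% interval -0.12 to 0.06). Acan, the aggrecan gene, had 0.00 ± 0.0493, and Sox9, the factor of chondrocyte identity, 0.01 ± 0.0285.

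Maturation and bone genes were less tightly measured. Of 15 genes of hypertrophic chondrocytes the median was 0.02, and the interval lay within 1.5-fold for 12. Col10a1, the collagen of hypertrophic chondrocytes, ranged from 79.4 to 261 CPM with 10 µM and 59.1 to 263 CPM with DMSO at 48 h, and its difference of 0.07 ± 0.220 (SE; 95% interval -0.38 to 0.52) therefore leaves room for changes of either sign. Col10a1 overlaps Nt5dc1 of 23.7 CPM on the other strand, so that its reads are partly uncertain. The 17 osteoblast and bone matrix genes had a median of 0.02, the osteoblast factors Runx2 and Sp7 stood at -0.02 ± 0.0439 and 0.01 ± 0.0610, and Col1a1, the main collagen of bone, at -0.02 ± 0.0415. Runx2 overlaps Supt3 of 14.3 CPM on the other strand and is partly uncertain. The 10 osteoclast genes had a median of 0.03.

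Signals that pattern the limb were near 0 as well. The 13 hedgehog genes had a median of -0.01, with Ihh, the ligand made by chondrocytes, at 0.02 ± 0.0769 and its receptor and target Ptch1 at 0.05 ± 0.0490. The 35 limb patterning genes had a median of 0.00, and Lmx1b, the factor of dorsal identity, was at -0.07 ± 0.0315 (edgeR p = 0.0294, n = 15 a side). The 14 BMP and TGF-beta genes had a median of 0.03, led by the decoy receptor Bambi at 0.13 ± 0.0518 and the inhibitor of differentiation Id2 at 0.09 ± 0.0374. Medians were 0.03 for 17 Wnt genes and for 11 Notch targets, -0.02 for 11 FGF feedback targets and -0.01 for 14 genes of the retinoid pathway. The 15 joint and tendon genes had 3 above 0, compared with 9088 of 18009 genes tested, and a median of -0.05. Their mean log2 CPM varied with an SD of 0.0763 between DMSO libraries of the same time. Osr2 was near the low end and Prg4, the lubricin of joint surfaces, highest (0.22 ± 0.0748, edgeR p = 0.00538, n = 15 a side). Prg4 lay without overlap at 48 h, 5.94 to 6.45 CPM with 10 µM and 4.66 to 5.61 CPM with DMSO, but it overlaps Tpr of 179 CPM and is uncertain.

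The estrogen receptors had low levels. Esr1, estrogen receptor alpha, averaged 1.18 ± 0.551 CPM with 10 µM and 1.56 ± 0.179 CPM with DMSO at 3 h, 1.01 ± 0.264 CPM with 10 µM and 0.742 ± 0.280 CPM with DMSO at 24 h, and 1.14 ± 0.355 CPM with 10 µM and 1.01 ± 0.225 CPM with DMSO at 48 h (SD, n = 5). Its log2 difference was 0.05 ± 0.176 (SE; 95% interval -0.30 to 0.41), and that of Esr2, estrogen receptor beta, 0.25 ± 0.280 at a mean of 0.597 CPM. Gm7862, of 1.52 CPM, overlaps Esr2 on the same strand, so its value is uncertain. The 15 estrogen receptor and responsive genes had 8 above 0 and a median of 0.02, and 14 genes responsive to androgen, thyroid hormone or glucocorticoid 7 above 0 and one of 0.01.

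Cyp1a1, the cytochrome induced through the aryl hydrocarbon receptor, had 6.34, 6.35, 5.22, 5.53 and 4.29 CPM with 10 µM at 48 h, against 3.99, 2.64, 3.19, 4.03 and 3.57 CPM with DMSO. These groups did not overlap, but those of 3 h did and were widely spread, 2.61 to 30.1 CPM with 10 µM and 3.95 to 26.3 CPM with DMSO. The combined difference was 0.23 ± 0.283 (SE), between -0.03 and 0.46 when single libraries were left out. Cyp1b1, a second target of that receptor, stood at -0.01 ± 0.124, and the 11 genes of the list had a median of 0.04.

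No gene of the stress and growth lists passed the test. Of 18 chaperones of the endoplasmic reticulum, 16 were above 0, compared with 9088 of 18009 genes tested, and their median was 0.04. Between DMSO libraries of the same time, the mean log2 CPM of these chaperones varied with an SD of 0.0506. The interval lay within 1.2-fold for all 18. Hspa5, the main chaperone there, was at 0.04 ± 0.0278, and Sel1l and Dnajb9, which serve the breakdown of misfolded proteins, at 0.09 ± 0.0371 and 0.13 ± 0.0532. The 20 targets of ATF4, the factor of amino acid stress, and 16 of NRF2, the factor of oxidative stress, both had a median of 0.01, and 13 cytosolic heat shock genes and 20 targets of p53 one of 0.00. The 29 cell cycle genes had -0.01, with the interval within 1.2-fold for each, and 21 immediate early genes -0.02. The 24 genes of hypoxia and glycolysis had 0.01, the 17 interferon-stimulated genes -0.06, the 14 lipid droplet genes -0.04, and the 13 mitochondrially encoded genes and 8 RNA quality transcripts 0.02. Some of these lists were loosely measured, with the interval within 1.2-fold for 5 of the 24 hypoxia genes, 4 of the 17 interferon genes and 2 of the 8 RNA quality transcripts. The hypoxia medians were 0.00, -0.09 and 0.13 at 3, 24 and 48 h, and the combined one lay between -0.07 and 0.10 when single libraries were left out. The 14 genes of fatty acid synthesis had a median of 0.02. Scd1, which puts a double bond into stearate, averaged 89.7 ± 4.47 CPM with 10 µM and 77.5 ± 5.41 CPM with DMSO at 48 h (SD, n = 5), without overlap. Its combined log2 difference was 0.12 ± 0.0445 (SE; edgeR p = 0.00851, n = 15 a side).

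**Figure D3:**
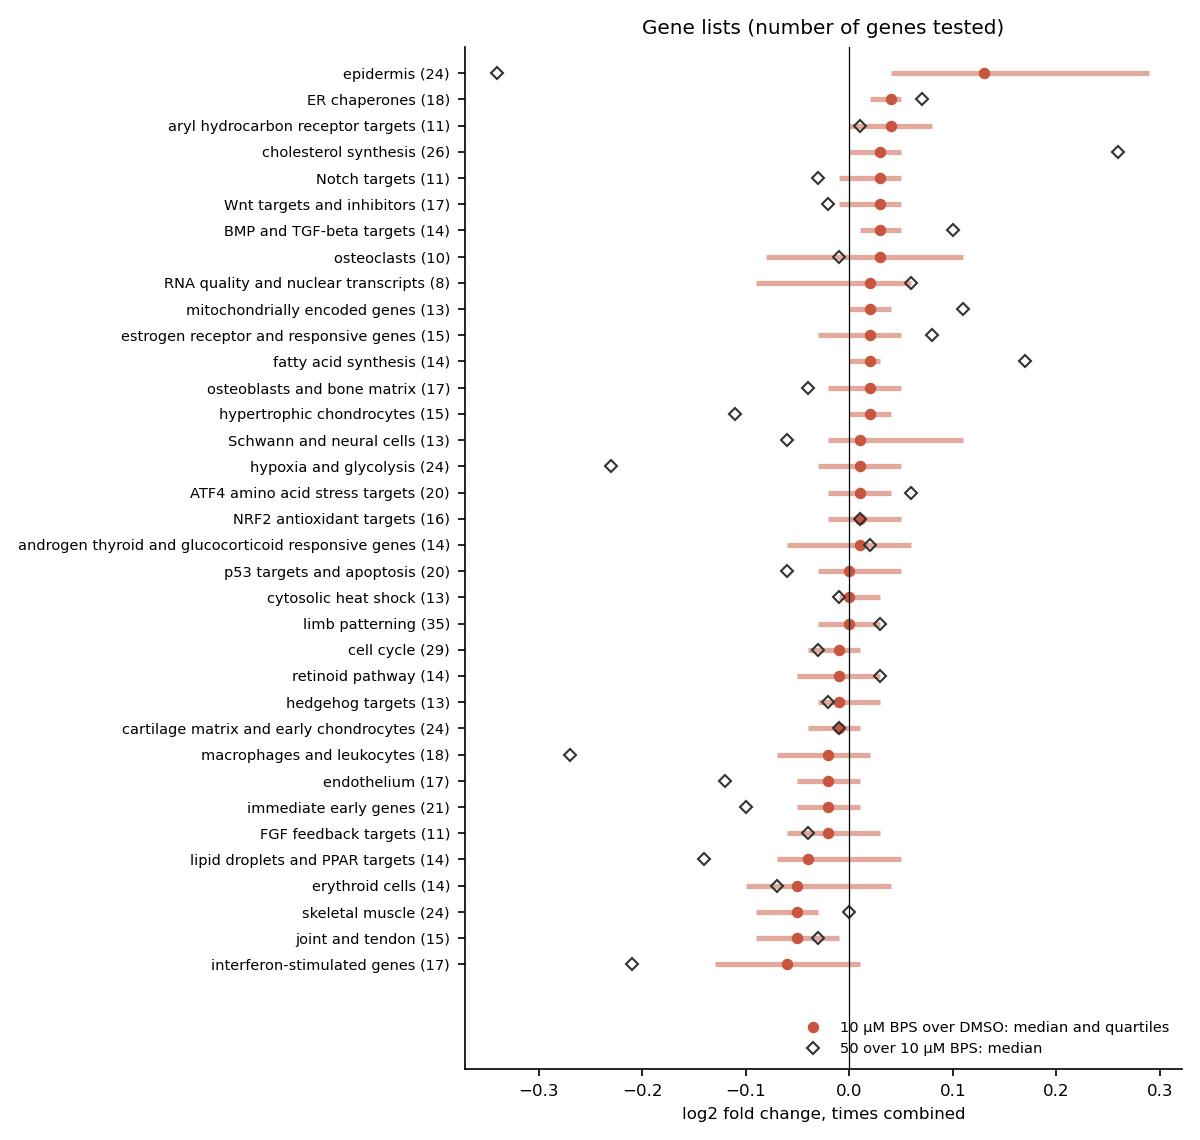
Median log2 fold change of 35 gene lists, times combined, with the number of genes tested in brackets. Red points and bars give 10 µM BPS over DMSO with the quartiles, and open diamonds the median of 50 over 10 µM BPS. The 10 µM medians lie between -0.06 and 0.13, with epidermis highest.

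Epidermal genes had the highest median of the 35 lists, 0.13, with 21 of 24 above 0, compared with 9088 of 18009 genes tested, and 0 past the test. Their mean log2 CPM varied with an SD of 0.289 between DMSO libraries of the same time. The medians were -0.06 at 3 h, -0.08 at 24 h and 0.40 at 48 h, and the combined median was -0.06 without the 48 h libraries. It was 0.06 both without the 5 libraries low in Ddx3y or Xist and with Ddx3y as a covariate. Calm4, a calmodulin-like protein of the upper epidermis, had 18.3, 24.4, 10.7, 13.6 and 10.6 CPM with 10 µM at 48 h, against 4.61, 7.91, 5.32, 14.5 and 6.67 CPM with DMSO. Dsc1, a desmosomal cadherin, had 5.82, 8.35, 2.90, 4.98 and 2.51 CPM with 10 µM, against 1.12, 1.84, 2.74, 2.75 and 3.47 CPM with DMSO. In both genes the groups overlapped, through DMSO replicate 4 for Calm4 and several libraries for Dsc1. At 3 h and 24 h both were at or near 0 on either side, so that their combined log2 differences of 0.89 ± 0.261 and 1.00 ± 0.317 rest on 48 h alone.

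The basal keratins Krt5 and Krt14 stood at -0.03 ± 0.151 and -0.04 ± 0.122. The keratin Krt77 stood at 0.75 ± 0.355 and the loricrin gene Lor at 0.42 ± 0.226, and none of these 4 genes passed the test (edgeR adjusted p = 1.00 for each). Krt77 was near 0 at 3 h, and averaged 1.18 ± 1.60 CPM with 10 µM and 0.687 ± 0.465 CPM with DMSO at 24 h (SD, n = 5). At 48 h it averaged 30.7 ± 14.0 CPM with 10 µM and 18.6 ± 8.58 CPM with DMSO. Its combined difference thus rests mainly on 48 h. Averaged over the list, the mean log2 CPM at 48 h was 4.17, 4.65, 4.00, 4.45 and 3.75 with 10 µM and 3.20, 3.69, 3.93, 3.95 and 3.61 with DMSO, groups that overlapped. The summed level at 48 h was 749 to 1594 CPM with 10 µM and 724 to 1106 CPM with DMSO. In whole limbs, a change in the number of epidermal cells and in RNA per cell cannot be told apart.

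**Figure D4:**
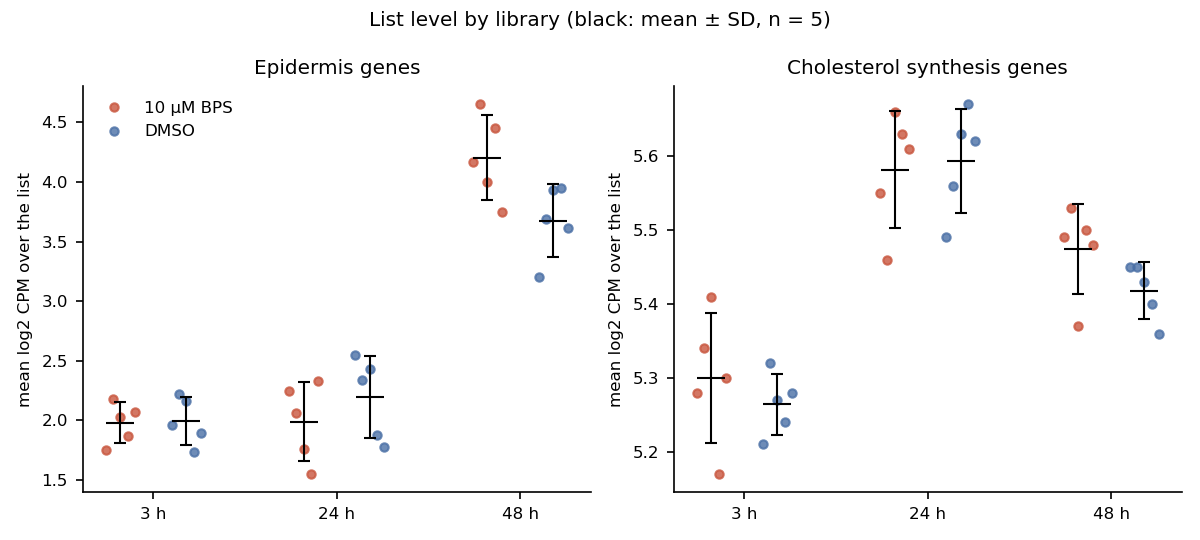
Mean log2 CPM over the epidermis list (left) and the cholesterol synthesis list (right) in each library at 3, 24 and 48 h, 10 µM BPS in red and DMSO in blue, with mean and SD of 5 libraries in black. The epidermis means at 48 h were 4.20 with 10 µM and 3.68 with DMSO, and the groups overlap at each time in both panels.

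Markers of other cells in the limb gave no called gene either. The 24 skeletal muscle genes had 1 above 0, compared with 9088 of 18009 genes tested, and a median of -0.05. Their mean log2 CPM varied with an SD of 0.185 between DMSO libraries of the same time. The intermediate filament gene Des stood at -0.13 ± 0.0589. The summed level of the list at 48 h was 5059 to 6833 CPM with 10 µM and 5051 to 7585 CPM with DMSO. The 17 endothelial genes had a median of -0.02, with the apelin receptor Aplnr at -0.18 ± 0.0592 (edgeR p = 0.00362, n = 15 a side), the 18 macrophage and leukocyte genes -0.02, the 14 erythroid genes -0.05, and the 13 Schwann and neural genes 0.01. The share of these cells in the differences of other genes was not tested.

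The next question was whether 50 µM differed from 10 µM, which asks for a test of the difference between doses. In edgeR 283 of 18051 genes (1.57%) passed, 137 higher (0.759%) and 146 lower (0.809%) with 50 µM, while DESeq2 called 478. Against DMSO, 50 µM gave 816 of 18071 genes (4.52%), 348 higher (1.93%) and 468 lower (2.59%), and 10 µM gave 0. The 3 comparisons share libraries in pairs, so their values are given side by side and are not independent.

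Genes of cholesterol synthesis rose together between the doses. With 50 over 10 µM, 18 of 26 genes of cholesterol synthesis and SREBP2 rose past the test, where 0.759% of all genes did. Of the 26 genes 0 fell past the test, and the median was 0.26. With 10 µM over DMSO 0 passed and the median was 0.03. For 24 of the 26 genes the interval of the 10 µM difference lay within 1.2-fold. Mvd, which makes isopentenyl diphosphate, was at 0.35 with 50 over 10 µM (edgeR adjusted p = 5.69e-05) and at -0.06 ± 0.0413 with 10 µM over DMSO. Nsdhl, a demethylating sterol dehydrogenase, was at 0.31 (adjusted p = 9.42e-05) and -0.02 ± 0.0514, and Dhcr7, which performs the last step to cholesterol, at 0.34 (adjusted p = 5.69e-05) and 0.08 ± 0.0339. Ebp, a sterol isomerase, and Ggps1, which leads to a branch outside sterols, were near 0 in both comparisons.

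The level of Hmgcs1, the synthase that feeds the pathway (chromosome 13, 119690379 to 119708260, plus strand), is given by library. At 48 h DMSO libraries had 133, 134, 146, 127 and 130 CPM, 10 µM libraries 137, 144, 134, 156 and 137 CPM, and 50 µM libraries 240, 211, 195, 196 and 164 CPM. The 10 µM libraries overlapped with DMSO and lay below all 50 µM libraries. At 24 h the ranges were 137 to 177 CPM with DMSO, 150 to 175 CPM with 10 µM and 195 to 240 CPM with 50 µM, and at 3 h all 3 groups overlapped. The log2 differences were 0.33 with 50 over 10 µM (edgeR adjusted p = 9.32e-04) and 0.05 ± 0.0381 with 10 µM over DMSO.

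The promoters of 3 of these genes are shown because their genes moved together between the doses and not past the test at 10 µM. Each window runs from 250 bases before to 50 bases after the RefSeq start (GRCm38.p6), 5′ to 3′ on the gene's strand, and capitals mark matches. The motifs searched on both strands were CCAAT, the box bound by NF-Y and written ATTGG where it lies on the other strand, and TCACNCCAC, a core of the sterol regulatory element bound by SREBP. No match of one overlapped the other in the windows shown.
Hmgcs1, chr13:119690101-119690400, plus strand: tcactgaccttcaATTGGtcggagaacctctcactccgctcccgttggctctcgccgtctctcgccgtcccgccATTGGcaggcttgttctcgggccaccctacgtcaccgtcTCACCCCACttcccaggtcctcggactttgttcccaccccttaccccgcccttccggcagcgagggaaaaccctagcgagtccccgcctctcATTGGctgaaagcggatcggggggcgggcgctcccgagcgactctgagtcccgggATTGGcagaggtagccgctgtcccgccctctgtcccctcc
Mvd, chr8:122443373-122443672, minus strand: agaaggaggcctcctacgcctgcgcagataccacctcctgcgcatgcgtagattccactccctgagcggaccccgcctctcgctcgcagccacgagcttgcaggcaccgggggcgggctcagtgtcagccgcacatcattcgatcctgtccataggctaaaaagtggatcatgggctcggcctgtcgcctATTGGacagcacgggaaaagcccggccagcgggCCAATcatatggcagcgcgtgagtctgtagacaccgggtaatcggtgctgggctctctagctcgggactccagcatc
Nsdhl, chrX:72918271-72918570, plus strand: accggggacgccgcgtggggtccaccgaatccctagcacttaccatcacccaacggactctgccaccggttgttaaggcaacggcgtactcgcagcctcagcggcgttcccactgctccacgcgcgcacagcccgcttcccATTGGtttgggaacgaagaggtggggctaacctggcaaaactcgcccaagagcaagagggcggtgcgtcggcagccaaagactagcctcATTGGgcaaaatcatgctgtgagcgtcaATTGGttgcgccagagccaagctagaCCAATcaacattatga
Hmgcs1 has 4 CCAAT matches and the single TCACCCCAC match of the list, 137 bases before the start, while Mvd has 2 CCAAT matches and Nsdhl 4. Of the 26 genes 18 had a promoter entry, and CCAAT was found in 17 of them (94.4%), against 41.1% of 27025 genes. TCACNCCAC was found in 1 of the 18 (5.56%), against 1.44% of all genes. These are descriptions of letters in the windows.

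**Figure D5:**
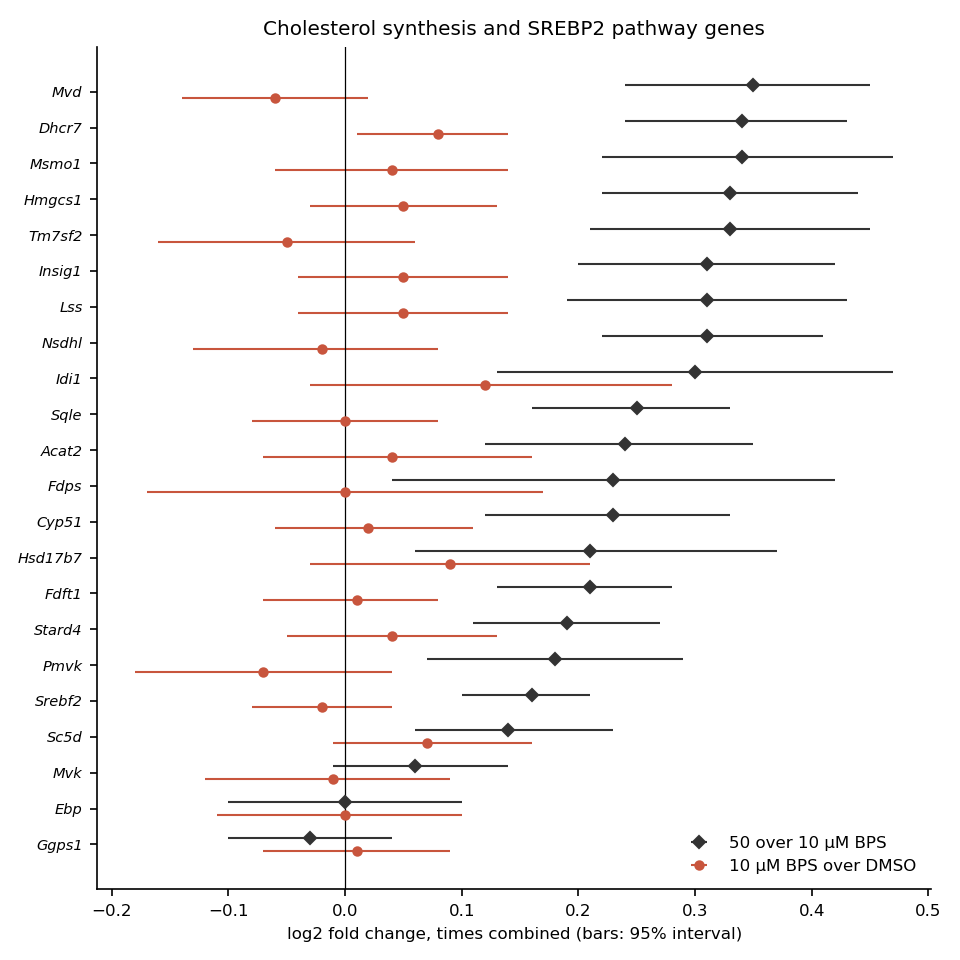
Log2 fold change of 22 of the 26 cholesterol synthesis and SREBP2 pathway genes, times combined, with the 95% interval as a bar. Black diamonds give 50 over 10 µM BPS and red points 10 µM BPS over DMSO. The red points lie between -0.07 and 0.12, while 14 of the 22 black ones passed the test, against 1.57% of all genes.

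Other genes that separated the doses are given beside their values at 10 µM, where no difference from DMSO passed the test. Arrdc4 and Txnip, alpha-arrestins that limit glucose uptake, were at -0.36 (edgeR adjusted p = 4.71e-06) and -0.40 (9.42e-05) with 50 over 10 µM, and at 0.01 ± 0.0491 and 0.00 ± 0.0555 with 10 µM over DMSO. Stab1, a scavenger receptor of macrophages and sinusoidal endothelium, was at -0.37 (2.05e-05) and -0.04 ± 0.0458, but Nt5dc2 of 217 CPM overlaps it on the other strand and its values are uncertain. Dkk3 and Eya2, a secreted Dickkopf protein and a transcription cofactor, were at 0.23 and 0.29 with 50 over 10 µM, and at 0.03 ± 0.0328 and -0.01 ± 0.0414 with 10 µM over DMSO. Among 18 macrophage and leukocyte genes 5 fell with 50 over 10 µM, where 0.809% of all genes fell: the receptors Csf1r (-0.37) and Trem2 (-0.37), the complement genes C1qa (-0.40) and C1qb (-0.35), and the lysozyme gene Lyz2 (-0.34). With 10 µM over DMSO 0 of the 18 passed.

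Mettl17, Osr2 and Adcy4 were named for their small p at 10 µM, where none of them passed the test. The mean of Mettl17 with 10 µM lay between those of DMSO and 50 µM at each time. Its means at 24 h were 38.5 ± 1.16 CPM with DMSO, 32.8 ± 2.39 CPM with 10 µM and 25.3 ± 1.11 CPM with 50 µM (SD, n = 5), and no libraries of these 3 groups overlapped. At 3 h the means were 31.3 ± 3.11, 29.1 ± 1.83 and 21.5 ± 2.88 CPM in that order of dose, and at 48 h 34.2 ± 1.64, 31.4 ± 2.29 and 22.8 ± 0.927 CPM. The libraries of 10 µM and DMSO overlapped at 3 h and at 48 h. The log2 difference of 50 over 10 µM was -0.42 (edgeR adjusted p = 1.70e-08), beside -0.16 ± 0.0392 for 10 µM over DMSO. Osr2 and Adcy4 also fell with 50 over 10 µM, by 0.21 (adjusted p = 8.54e-04) and 0.17 (adjusted p = 0.0259) on the log2 scale. Cpm rose by 0.30 with 50 over 10 µM (adjusted p = 9.46e-07) and Scd1 by 0.50 (2.80e-05). Adam33, Slc9a5, Tns4 and Slc5a3 did not pass that test, at -0.14, -0.11, 0.15 and 0.07. Lrrc45 (-0.18), Igsf6 (-0.19) and Spcs3 (0.06) did not pass it either and kept the direction of their 10 µM difference. Acsl6 (0.15), Elovl4 (-0.04), Tpp1 (-0.03) and Pak3 (-0.10) went against theirs without passing, and Fbxo36 stood at 0.00.

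The epidermal list had a negative median between the doses, -0.34 with 50 over 10 µM. Of its 24 genes 1 fell past the test, where 0.809% of all genes did. That gene was Krt6b at -2.63 (edgeR adjusted p = 3.31e-06), whose reads may be shared with the near-identical Krt6a. Calm4, on no list, was at -1.61 with 50 over 10 µM (edgeR adjusted p = 0.00123) and Dsc1 at -1.47 (adjusted p = 0.0677). At 48 h the list level was 3.68 ± 0.30 with DMSO, 4.20 ± 0.36 with 10 µM and 3.47 ± 0.34 with 50 µM (mean log2 CPM, SD, n = 5). The 10 µM libraries are the highest of the 3 doses on average here, and all 3 groups overlap.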

How the data were processed

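Poly-A RNA of 45 libraries was sequenced. CASAVA 1.8, STAR 2.5, HTSeq 0.6.1 and DESeq2 are listed with the build mm10, per the submitters' processing notes, without roles. No annotation release or strand setting was found in the labels. The deposited tables hold raw read counts per gene and library, per the file headers, which the authors did not normalise. The authors' other columns were not used here.

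Joining the 9 tables on the gene identifier gave 34994 genes (34969 unique symbols). Of 1319925 control counts found in more than 1 table, 0 differed. A gene missing from a table, with at most 1 read where it could be checked, was set to 0, and there were 0 columns of other samples. No pair of libraries within a group agreed within sampling noise (lowest chi-square per degree of freedom 4.15 over 60 pairs).

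Tests were two-sided edgeR 4.0.16 quasi-likelihood tests in R 4.3.3 (TMM, filterByExpr, robust dispersion), with time as a block, with Benjamini-Hochberg adjustment across the whole table and a call below 0.05. DESeq2 1.42.0 and limma 3.58.1 were alternatives, and the scripts were tested on simulated data. SE values come from the fold change and the F statistic. CPM used TMM factors over 45 libraries, and list scores log2 CPM with a prior count of 2. Named genes were the 10 of smallest p in each direction (at least 1 CPM on average), up to 2 per list, 5 from the interaction, the 8 of smallest p each way between doses, and a panel of 18. Lor, Krt5, Krt14, Ebp, Ggps1, Gm42047 and the 5 macrophage genes were named after their values were seen. The members, the 35 gene lists and the rule were chosen with earlier results of these data known. A few named genes are not reported here. Floors cover counting error only, since reads carry no molecular identifiers.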

Additional observations from a re-analysis of the deposited data

Results flagged for a closer look

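Single libraries that stood far from the other 4 of their group were sought in 25 genes and 2 list scores. The gap to the nearest library was compared with the whole range of the group, and 18 groups (7.66% of those tried) were marked, where chance marks about 1 in 20.

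With 10 µM BPS, the values that stood apart were Adcy4 at 39.4 CPM (24 h replicate 3, low), Cpm at 101 CPM (48 h replicate 4, high), Cyp1a1 at 30.1 CPM (3 h replicate 5, high), Nsdhl at 27.8 CPM (24 h replicate 2, low), Aplnr at 12.6 CPM (24 h replicate 1, high) and Esr1 at 1.76 CPM (48 h replicate 4, high). Cyp1a1 was also highest in replicate 5 of DMSO at 3 h, at 26.3 CPM.

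With 50 µM BPS they were Osr2 at 39.8 CPM (24 h replicate 2, low), Tns4 at 2.28 CPM (24 h replicate 2, low), Slc5a3 at 58.5 CPM (48 h replicate 1, high), Hmgcs1 at 240 CPM (24 h replicate 5, high), Col2a1 at 9314 CPM (48 h replicate 3, low), Col10a1 at 37.4 CPM (24 h replicate 1, high), Prg4 at 4.94 CPM (3 h replicate 1, high) and Esr1 at 1.34 CPM (24 h replicate 5, high).

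With DMSO they were Tns4 at 1.01 CPM (24 h replicate 2, low), Calm4 at 0.197 CPM (3 h replicate 1, high), Aplnr at 8.26 CPM (24 h replicate 5, low) and Esr1 at 1.87 CPM (3 h replicate 2, high). The Calm4 value is a few reads.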

How the results depend on the processing

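For 10 µM BPS over DMSO the number of called genes was 0 in each alternative run, with the count at an unadjusted p below 0.05 between 424 (without 48 h) and 802 (leaving out single libraries), or 2015 of 34087 genes with no filter on low counts. With the replicate number as a block within each time it was 0 (795 at an unadjusted p below 0.05), and across times 0 (680). The interaction had 0 in each alternative, 318 to 460 at an unadjusted p below 0.05 when single libraries were left out and 468 with the block. For 50 over 10 µM the count was 478 with DESeq2 (274 shared with edgeR), 537 with the replicate block (282 shared), 359 with limma-voom and 246 with no filter, and 196 to 317 when single libraries were left out; the cause was not tested. Leaving out 50 µM 48 h replicate 1 gave 196. For 50 µM over DMSO it was 616 to 1166, and 623 to 965 when single libraries were left out. Same-numbered libraries deviated together (correlation above 0.1) in 10 of 15 pairs, including all 5 pairs at 24 h (lowest 0.14), and 8 of 15 correlated best with their own number. This is a hint of pairing in the data, but the labels state none and not every pair passed 0.1 (lowest -0.09), so the fit without the block was kept. The leave-one-out range of the epidermis median was 0.08 to 0.19. The depth limits genes under 1 CPM, and 357 genes of at least 1 CPM had an interval that reached past 1.5-fold.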
